A study of Xenopus laevis with 6 samples.

Results

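The genes described here form the ventral BMP feedback group of the early frog embryo. They were chosen by name, as the entries of the count table for sizzled (szl), bambi, bmp4, the ventx genes, smad6, smad7, bmper and twsg1, with the endings L and S for the homeologs of the allotetraploid Xenopus laevis. The names found 20 genes of the 45090 in the table, and 19 of these passed the filter on low counts, against 21673 genes tested in all. The names twsg1 and ventx2 found no gene in this way, so genes of these names were not analysed here.

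Messenger RNA was sequenced from whole wild-type embryos of this frog that had reached late gastrula (stage 12.5 of Nieuwkoop and Faber). Half-size embryos (3 libraries) had each grown from a single blastomere after the cells of the 2-cell embryo were separated, and they were compared with intact embryos (3 libraries). Half-size and intact libraries that share a number are siblings by their labels. The labels do not say how many embryos went into a library, or whether both blastomeres of an embryo were grown on. Total counts lay between 20069300 and 29284864 per library, and the libraries deviated from their group means in sibling pairs. Levels are given in CPM, counts scaled by library size with TMM factors, at which 1 count stood for 0.0348 to 0.0501 CPM. The values of different genes are not compared as levels, because the files give no transcript lengths.

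BMP ligands pattern the dorsal-ventral axis of the gastrula: signalling is high on the ventral side and is held low dorsally by antagonists, chordin among them, that the organizer secretes. Genes switched on by BMP on the ventral side include several that dampen the same pathway, and in the frog they are known as a group expressed together with bmp4. Sizzled is a secreted protein that inhibits the proteases that cleave chordin. Bambi is a transmembrane pseudoreceptor without a kinase domain, smad6 and smad7 are inhibitory Smads inside the cell, and bmper (crossveinless-2) is a secreted protein that binds BMPs and chordin. The ventx genes encode homeodomain transcription factors that repress dorsal genes in ventral cells.

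Sizzled, bambi and 1 homeolog of smad7 were lower in half-size than in intact embryos, by 2.74-fold for szl.L, 2.04-fold for szl.S, 1.46-fold for bambi.L, 1.53-fold for bambi.S and 1.43-fold for smad7.L. These 5 of 19 genes passed an adjusted p of 0.05 in the paired fit, edgeR's quasi-likelihood test with the sibling number as a block, and none was higher. Over all genes tested in that fit, 3.93% were called lower and 1.99% higher. The call rested on the pairing. Fitted by group alone, edgeR called 0 of 21673 genes (0%) and 0 of the 19. In that fit 6 of the 19 had an unadjusted p under 0.05 and were lower (2.33% of all genes tested), and 0 of the 19 were higher (1.25%). Without pairing limma-voom called 0 genes, and DESeq2 called 1 of the 19, bambi.S (0.171% of all genes called lower). With pairing, DESeq2 called 4 of the 18 for which it gave an adjusted p, all lower (4.17% of all genes), and with homeologs summed the paired edgeR fit called 3 of 11 genes lower (4.08%). Log2 fold changes (half-size over intact, ± SE from 3 pairs) and adjusted p-values of single genes below are from the paired edgeR fit; in the fit without pairing each of these genes had an adjusted p of 0.9998.

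Sizzled showed the largest fall among the genes called. The half-size libraries 1, 2 and 3 had 32.5, 17.2 and 14.4 CPM of szl.L, against 42.1, 72.7 and 55.1 CPM in the intact libraries. The groups did not overlap, and half-size library 1 was the one closest to its siblings. Its log2 fold change was −1.46 ± 0.26 (SE; adjusted p = 0.0111), and by pair its log2 ratios were −0.37, −2.08 and −1.94. When siblings 3 were left out szl.L no longer passed (log2 fold change −1.21, adjusted p = 0.0604), nor did it pass in the paired DESeq2 test (adjusted p = 0.0600).

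For szl.S the half-size libraries had 21.1, 9.67 and 14.0 CPM, against 30.1, 32.2 and 26.1 CPM in the intact libraries. The groups again did not overlap, and again the difference was smallest in pair 1. For szl.S the log2 fold change was −1.03 ± 0.19 (SE; adjusted p = 0.0121), and the log2 ratios by pair were −0.51, −1.74 and −0.90. With the counts of both homeologs summed, szl had a paired log2 fold change of −1.29 (adjusted p = 0.00960). In whole embryos, fewer cells that express a gene and less of its RNA per cell cannot be told apart, and this holds for every gene here.

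Bambi differed less in size but more evenly. The half-size libraries 1, 2 and 3 had 114, 109.6 and 117 CPM of bambi.L, against 154, 169.8 and 173 CPM in the intact libraries. The 3 half-size values lay within a narrow band, 113 ± 3.51 CPM (SD, n = 3), below all intact values, 166 ± 10.5 CPM (SD, n = 3). Over the pairs, the log2 fold change of bambi.L was −0.55 ± 0.08 (SE; adjusted p = 0.00454), and its log2 ratios by pair were −0.43, −0.63 and −0.57.

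The homeolog bambi.S had 65.4, 57.2 and 63.3 CPM in the half-size libraries, against 90.1, 100.2 and 93.5 CPM in the intact libraries. As for bambi.L, every half-size library lay below every intact one. Its log2 fold change was −0.61 ± 0.09 (SE; adjusted p = 0.00517). The calls of bambi.L, bambi.S and szl.S held in every alternative that kept the pairing and counted homeologs apart, with each pair left out in turn among them.

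**Figure D1:**
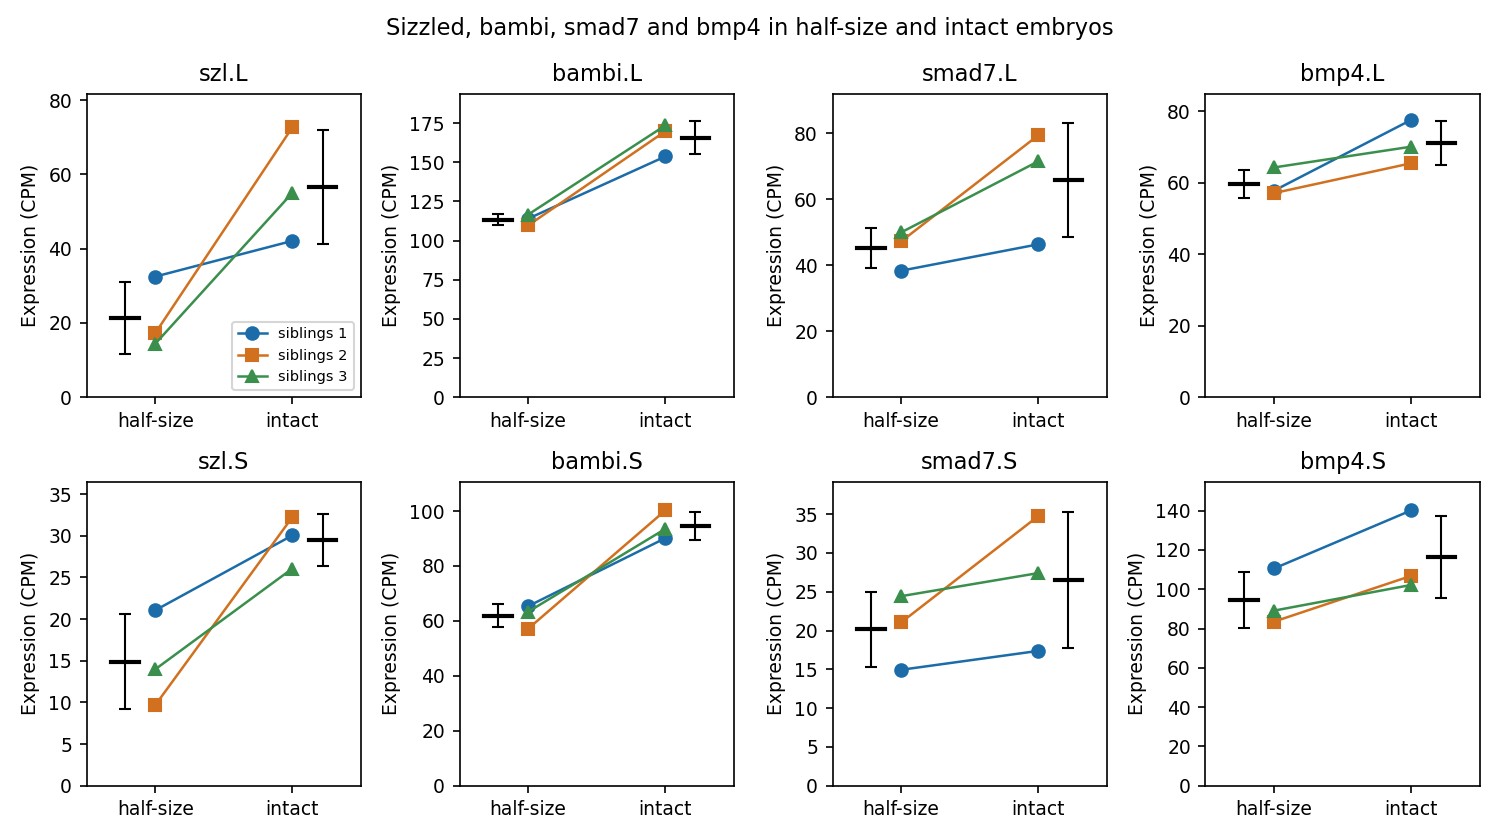
Expression in CPM (vertical axes, from 0) of szl, bambi, smad7 and bmp4, with the L homeolog above and the S homeolog below, in half-size and intact embryos. Each coloured line joins sibling libraries, and black bars give the mean ± SD (n = 3): szl and bambi do not overlap between groups (szl.L 14.4 to 32.5 CPM in half-size and 42.1 to 72.7 CPM in intact embryos), whereas smad7 and bmp4.S do.

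Of the inhibitory Smads, smad7.L had 38.3, 47.2 and 49.95 CPM in the half-size libraries 1, 2 and 3, against 46.3, 79.4 and 71.5 CPM in the intact libraries. The groups overlapped, since intact library 1 lay below half-size libraries 2 and 3, but each half-size library lay below its own siblings. The log2 fold change of smad7.L was −0.52 ± 0.11 (SE; adjusted p = 0.0183). With siblings 2 left out smad7.L did not pass (log2 fold change −0.40, adjusted p = 0.130), and likewise with siblings 3 left out (−0.51, adjusted p = 0.0724). The homeolog smad7.S had 14.9, 21.0 and 24.4 CPM in half-size and 17.4, 34.8 and 27.4 CPM in intact libraries and did not pass (log2 fold change −0.37 ± 0.13 SE, adjusted p = 0.120). Summed over both homeologs, smad7 passed (paired log2 fold change −0.47, adjusted p = 0.0257).

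The smad6 genes did not pass. For smad6.L the half-size libraries had 25.6, 26.6 and 24.8 CPM, against 29.3, 28.5 and 29.8 CPM in the intact libraries. These groups did not overlap, but the log2 fold change of smad6.L was only −0.19 ± 0.10 (SE; adjusted p = 0.324). The homeolog smad6.S had a log2 fold change of −0.25 ± 0.10 (SE; adjusted p = 0.177). A further gene named smad6.2.L was counted at 2.04 to 2.78 CPM in half-size and 2.12 to 2.15 CPM in intact libraries (log2 fold change 0.23 ± 0.22 SE, adjusted p = 0.596). Its homeolog smad6.2.S had 0 counts in all 6 libraries, which allows up to 0.104 to 0.150 CPM per library (3 counts, counting error only).

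The secreted modulator bmper.L differed between sibling sets (edgeR, adjusted p = 0.000877), and its difference between groups did not pass. The half-size libraries 1, 2 and 3 had 12.6, 23.5 and 12.5 CPM, against 13.2, 28.1 and 17.9 CPM in the intact libraries. Siblings 2 were highest in both groups, and each half-size library lay somewhat below its siblings. The log2 fold change of bmper.L was −0.28 ± 0.12 (SE; adjusted p = 0.205).

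The ligand bmp4 itself was lower in the half-size library of every pair for both homeologs, by amounts that did not pass. For bmp4.L the half-size libraries had 57.7, 57.1 and 64.2 CPM, against 77.5, 65.4 and 70.0 CPM in the intact libraries. These groups lay next to each other without overlap. The log2 fold change of bmp4.L was −0.25 ± 0.09 (SE; adjusted p = 0.140). For bmp4.S the half-size libraries had 110.6, 83.5 and 89.1 CPM, against 140.1, 107 and 102 CPM in the intact libraries. The groups overlapped, with half-size library 1 above intact libraries 2 and 3, and the log2 fold change of bmp4.S was −0.30 ± 0.08 (SE; adjusted p = 0.0546). Summed over both homeologs, bmp4 had a paired log2 fold change of −0.27 (adjusted p = 0.0669).

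None of the 7 ventx genes passed in the paired edgeR fit, nor by paired limma-voom or by paired DESeq2 (which gave no adjusted p for ventx3.1.S), and 2 of them, ventx3.1.S and ventx3.2.L, had an unadjusted p under 0.05 in edgeR, against 22.6% of all genes tested in that fit. In the RefSeq table of the assembly Xenopus_laevis_v10.1 the ventx genes of each subgenome neighbour each other, as a cluster of 5 genes on the L and 5 on the S side, with 1 other gene among those of S. Of these, the choice by name found the ventx1.1, ventx1.2 and ventx3.2 genes in the count table. Entries with a further ending after L or S, as in chrd.1.L.g, were not taken, so the ventx2 genes of the cluster were not examined. For ventx1.2.L the half-size libraries 1, 2 and 3 had 100.2, 34.3 and 75.9 CPM, against 74.8, 43.3 and 66.3 CPM in the intact libraries. Half-size was above intact in pairs 1 and 3 and below it in pair 2, and both groups were lowest in siblings 2. The log2 fold change of ventx1.2.L was 0.10 ± 0.13 (SE; adjusted p = 0.695), and that of ventx1.2.S was −0.01 ± 0.13 (SE; adjusted p = 0.967), a value whose sign changed with the setting.

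The ventx1.1 homeologs had log2 fold changes of −0.17 ± 0.12 for ventx1.1.L and −0.21 ± 0.15 for ventx1.1.S (SE; adjusted p = 0.421 and 0.445). For ventx1.1.S the half-size libraries had 33.1, 37.0 and 50.1 CPM, against 28.9, 60.8 and 53.8 CPM in the intact libraries. The difference thus stood mainly in pair 2. For ventx3.2.L and ventx3.2.S, close relatives of ventx1, the log2 fold changes were −0.34 ± 0.14 and −0.12 ± 0.10 (SE; adjusted p = 0.172 and 0.517). With siblings 1 left out ventx3.2.L passed (log2 fold change −0.54, adjusted p = 0.0190), and with siblings 2 left out its log2 fold change was −0.19 (adjusted p = 0.642). The low ventx3.1.S had 0.556, 0.501 and 0.378 CPM in half-size and 0.998, 2.26 and 0.493 CPM in intact libraries (log2 fold change −1.25 ± 0.39 SE, adjusted p = 0.0868). With siblings 2 left out the log2 fold change of ventx3.1.S was −0.65 (adjusted p = 0.566), and with no filter on low counts it was −1.23 and passed (adjusted p = 0.0127). In that unfiltered paired edgeR fit the adjusted p of szl.L was 8.73e-29, against 0.0111 with the filter, so its calls are read with caution. The gene ventx3.1.S rests on 10 to 13 counts in each half-size library and 10 to 65 in each intact library. The ventx paralogs resemble each other in sequence, and no label or header says how reads that fit several copies were counted.

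**Figure D2:**
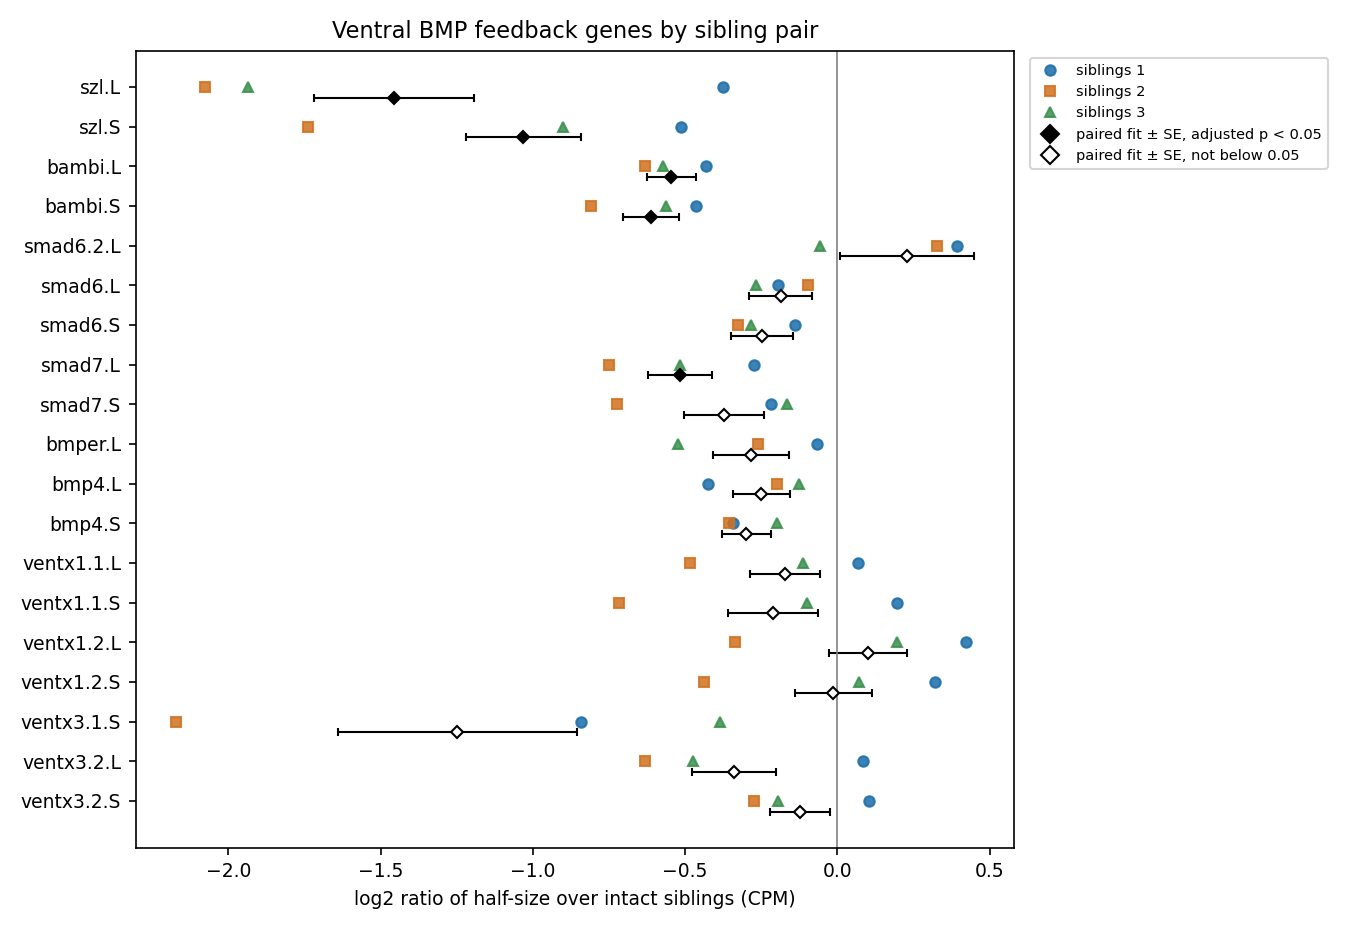
Log2 ratio of half-size over intact CPM (horizontal axis) for the 19 tested genes (rows), with 1 coloured symbol per sibling pair; the black diamond under each row is the paired log2 fold change ± SE, filled where the adjusted p was under 0.05. The filled diamonds belong to szl, bambi and smad7.L, and pair 1 lies to the right of 0 for the ventx1 and ventx3.2 genes, where pair 2 lies to the left.

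Read together as a description, 17 of the 19 genes had a paired log2 fold change below 0, against 49.6% of all genes tested, with a median of −0.28 against 0.0031 over all genes tested. In the half-size library of all 3 pairs 12 of the 19 genes were lower, against 22.6% of all genes tested, and 0 of the 19 were higher, against 21.7%. The CPM of 6 of the 19 (both szl, both bambi, smad6.L and bmp4.L) lay lower in half-size embryos without overlap, against 4.9% of all genes tested, and that of 0 of the 19 lay higher without overlap, against 4.14%. Levels of 9 of the 19 differed between replicate numbers at an adjusted p of 0.05 (edgeR, group kept in the model), a share close to the 49.1% of all genes tested. Those 9 included both smad7 genes, bmper.L and the 4 ventx1 genes, but neither szl nor bambi.

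Ratios within a library compare the genes with each other without any scaling between libraries. The count of szl (L and S summed) relative to bmp4 was 0.318, 0.191 and 0.185 in half-size libraries 1, 2 and 3, against 0.332, 0.609 and 0.471 in the intact libraries. The ratio was 2.04-fold lower in half-size embryos on average (log2 difference −1.03), but pair 1 hardly differed (−0.06, against −1.67 and −1.35 in pairs 2 and 3). The ratio of szl to chordin (chrd.1.L.g and chrd.2.L.g summed, both L entries) was 0.111, 0.0558 and 0.0683 in half-size libraries, against 0.211, 0.290 and 0.282 in intact libraries, 3.44-fold lower. Here the half-size library was lower in all 3 pairs, by log2 differences of −0.93, −2.38 and −2.05.

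For each of these 2 ratios the two-sided exact permutation test gave p = 0.1, the smallest that 3 against 3 libraries allow (adjusted p = 0.2 over 4 ratios). The ratio of bambi to bmp4 was 1.07, 1.19 and 1.17 in half-size libraries, against 1.12, 1.57 and 1.55 in intact libraries (log2 difference −0.29, exact permutation p = 0.3, adjusted p = 0.3). Within pairs 1, 2 and 3 the log2 differences of bambi to bmp4 were −0.07, −0.40 and −0.40 (two-sided exact sign-flip permutation p = 0.25, the smallest that 3 pairs allow). The ratio of szl to bambi was 0.299, 0.161 and 0.158 in half-size libraries, against 0.296, 0.389 and 0.304 in intact libraries (log2 difference −0.73, exact permutation p = 0.2, adjusted p = 0.267). In pair 1 the ratio of szl to bambi was nearly equal in both groups. Only the change of these ratios between libraries is read, since their size also depends on the lengths of the transcripts.

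**Figure D3:**
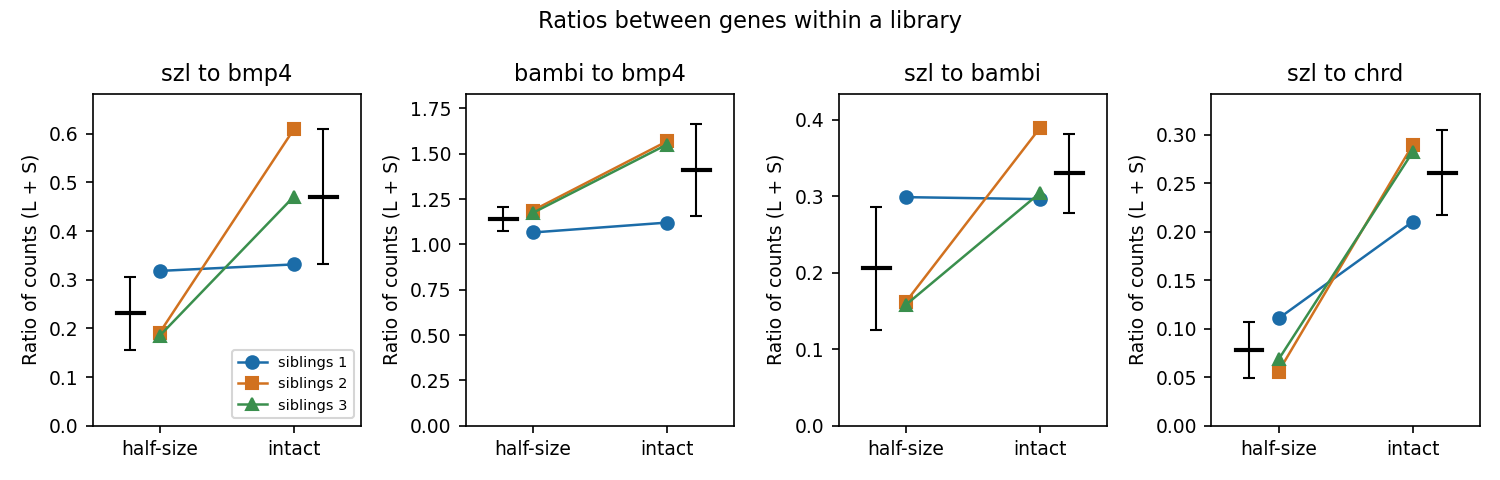
Ratio of summed L and S counts of one gene to another within each library (vertical axes, from 0), for half-size and intact embryos, with lines joining siblings and black bars for the mean ± SD (n = 3). For chrd the sum is that of chrd.1.L.g and chrd.2.L.g, both L entries. The ratio of szl to chrd lies between 0.0558 and 0.111 in half-size and between 0.211 and 0.290 in intact libraries, and the ratio of szl to bmp4 hardly differs in siblings 1.

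The split of counts between L and S homeologs was followed in the 8 pairs with enough counts, where Wilson 95% intervals reached at most 4.05 percentage points to either side (counting error only). For ventx1.1 the L share was 63.5%, 43.3% and 42.9% in half-size libraries 1, 2 and 3, against 65.6%, 39.4% and 43.1% in intact libraries. Siblings had like shares, and siblings 1 stood apart in both groups. Likewise the L share of ventx1.2 was 48.7%, 37.4% and 56.4% in half-size libraries, against 46.9%, 35.8% and 54.3% in intact libraries. Within pairs the L share of ventx1.2 was higher in the half-size library by 1.76, 1.63 and 2.12 percentage points (two-sided exact sign-flip permutation p = 0.25, the smallest that 3 pairs allow). The counting error of its single shares was 2.22 points in the library where it was largest. Differences within pairs also had 1 sign for ventx3.2 (−0.357, −5.52 and −4.19 points) and smad7 (−0.765, −0.373 and −5.14 points), each with the same sign-flip p. For ventx1.1 and ventx1.2 the shares of different sibling sets lay further apart than those of siblings, except that siblings 2 and 3 had like shares of ventx1.1.

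For szl the L share was 60.7%, 64.1% and 50.7% in half-size libraries, against 58.4%, 69.3% and 67.9% in intact libraries. The differences within pairs 1, 2 and 3 were 2.32, −5.21 and −17.1 percentage points. Between the groups the L share of szl gave an exact permutation p of 0.3 (adjusted p = 0.6 over 8 pairs). With 3 against 3 libraries this test cannot go below 0.1, so it cannot decide whether the share differed. The smallest p among the 8 pairs was 0.2, for smad7, whose L share averaged 69.4% ± 2.42 in half-size and 71.5% ± 1.72 in intact libraries (SD, n = 3; exact permutation test, adjusted p = 0.6).

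**Figure D4:**
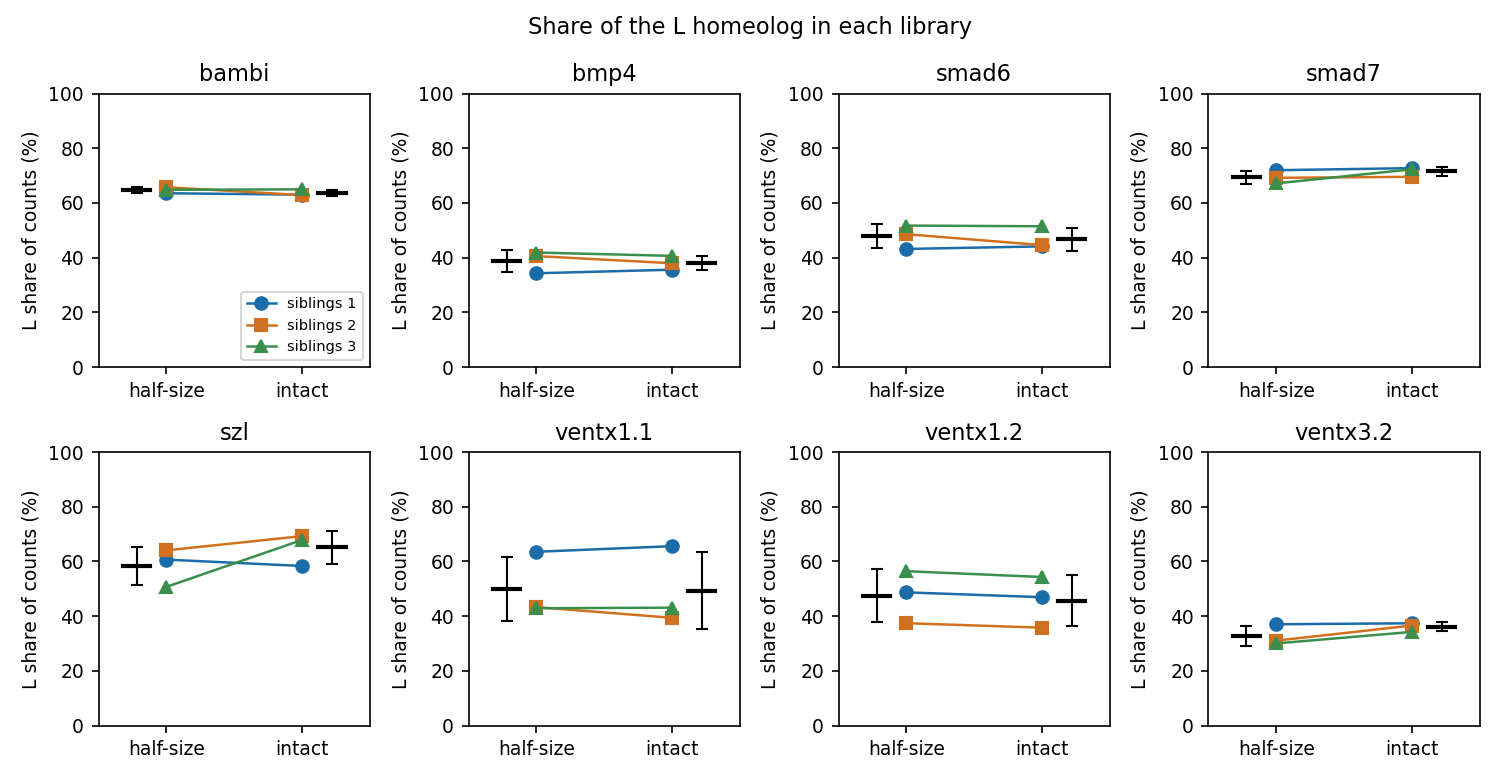
Share of the L homeolog among the counts of an L and S pair, in percent (vertical axes, 0 to 100), for 8 pairs of homeologs in half-size and intact embryos, with lines joining siblings and black bars for the mean ± SD (n = 3). Lines for ventx1.1 and ventx1.2 run nearly level at different heights (35.8% to 65.6%), while the L share of szl in siblings 3 is 50.7% in the half-size and 67.9% in the intact library.

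Other genes of the BMP pathway were read from lists by role, of which 62 genes were tested. In the paired fit 7 of the 62 fell and 3 rose, against 3.93% lower and 1.99% higher of all genes tested. Among ligands other than bmp4, 1 of 10 fell: bmp7.1.S, a BMP7 gene, averaged 5.25 ± 1.92 CPM in half-size and 8.69 ± 3.03 CPM in intact libraries (SD, n = 3; log2 fold change −0.73 ± 0.16 SE, adjusted p = 0.0268). It no longer passed with siblings 2 left out (bmp7.1.S, adjusted p = 0.0713) or siblings 3 (adjusted p = 0.138). The homeolog bmp7.1.L, at 50.1 ± 13.7 CPM in half-size and 56.9 ± 12.8 CPM in intact libraries (SD, n = 3), did not pass (log2 fold change −0.20, adjusted p = 0.393). Among 13 receptor genes acvr1.L, a type I receptor, rose (42.0 ± 8.93 CPM in half-size and 29.6 ± 4.30 CPM in intact libraries, SD, n = 3; adjusted p = 0.0173). With siblings 3 left out acvr1.L narrowly missed the threshold (adjusted p = 0.0530). The homeolog acvr1.S, at 75.8 ± 9.36 CPM in half-size and 69.2 ± 0.847 CPM in intact libraries (SD, n = 3), did not pass (log2 fold change 0.12, adjusted p = 0.465). None of 10 genes for the receptor-regulated and common Smads and ctdnep1 passed in paired edgeR, where 3 had an unadjusted p under 0.05 (22.6% of all genes tested), and paired DESeq2 called 0 and limma-voom 1, smad9.L (6.29% of all genes tested). The one with the highest count, smad4.1.S.g, had a log2 fold change of −0.05 ± 0.08 (SE; adjusted p = 0.785). Exact matching found 5 of the 10 symbols of this Smad list, and smad5, smurf1 and smurf2 were not among them.

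Among 12 tested genes for secreted antagonists, the 2 chordin genes rose and none fell (1.99% higher and 3.93% lower of all genes tested). The half-size libraries 1, 2 and 3 had 273, 292 and 249 CPM of chrd.1.L.g, against 197, 211 and 167 CPM in the intact libraries (log2 fold change 0.50 ± 0.07 SE, adjusted p = 0.00477). For chrd.2.L.g the log2 fold change was 0.44 ± 0.08 (SE; adjusted p = 0.0105). Sizzled, which protects chordin from cleavage, fell in the same comparison. Of the 5 symbols listed for chordin-cleaving proteases and proteins that act on them, exact matching found only olfml3. It was at up to 0.249 CPM per homeolog and was not tested. Genes entered under other names would be missed in this way, so the chordin-cleaving proteases were not examined here.

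Of 17 tested genes for transcription factors known to respond to BMP, 6 fell and none rose (3.93% lower and 1.99% higher of all genes tested). The other 11 did not pass, the id2 and id4 genes among them (adjusted p = 0.195 to 0.808). Of the 14 symbols of this list 9 were found, and id1 and id3 were not. The homeobox gene dlx3.S averaged 39.0 ± 10.5 CPM in half-size and 59.9 ± 5.36 CPM in intact libraries (SD, n = 3; log2 fold change −0.65 ± 0.12 SE, adjusted p = 0.0142). Its homeolog dlx3.L had a log2 fold change of −0.55 (adjusted p = 0.0422), and did not pass with siblings 1 left out (adjusted p = 0.103) or siblings 3 (adjusted p = 0.0601). The forkhead genes foxi1.L and foxi1.S, which act in ionocytes of the epidermis, had log2 fold changes of −1.55 and −1.02 (adjusted p = 0.000973 and 0.00220). The homeobox genes msx2.L and msx1.S had log2 fold changes of −0.49 and −0.44 (adjusted p = 0.0112 and 0.0499). Leaving out siblings 2 took msx2.L above the threshold (adjusted p = 0.0519). The homeologs msx2.S (log2 fold change −0.06, adjusted p = 0.779) and msx1.L (−0.48, adjusted p = 0.0514) did not pass. For msx1.S the call ended with siblings 1 (adjusted p = 0.0696) or siblings 2 left out (adjusted p = 0.337), and when scaled as in DESeq2 (adjusted p = 0.0558).

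**Figure D5:**
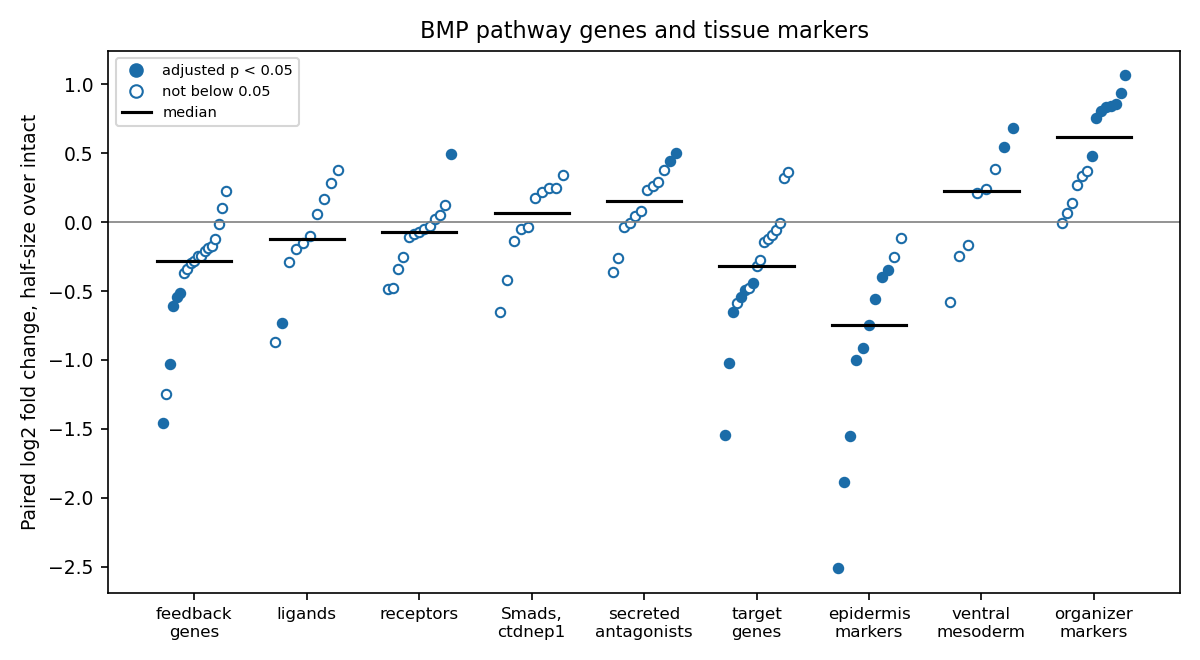
Paired log2 fold change, half-size over intact (vertical axis), of each tested gene in the feedback group, in BMP pathway lists by role and in lists of tissue markers; filled points had an adjusted p under 0.05 and black lines are medians. Medians lie at −0.28 for the feedback genes, −0.32 for the target genes, −0.75 for epidermis markers and 0.62 for organizer markers.

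Some markers of the tissues in which BMP is active or held off differed as well, with directions that varied between lists. Over all genes tested, the paired fit called 3.93% lower and 1.99% higher. Of 11 tested genes for markers of non-neural epidermis, a ventral tissue, 9 fell and none rose in the paired fit, and the summed level of the 14 genes of the list found in the table was 3337 to 4975 CPM in half-size and 5050 to 6746 CPM in intact libraries. Of those 14 krt5.6.S, which was not tested, was at 0 in every library. The largest fall in that list was that of tp63.S, a transcription factor gene of the basal epidermal layer, at 8.30, 30.2 and 7.21 CPM in half-size libraries, against 70.1, 89.5 and 58.3 CPM in intact libraries. Of 8 tested genes for markers of ventral and lateral mesoderm none fell and 2 rose, wnt8a.L and wnt8a.S. The other 6 did not pass, with paired log2 fold changes from −0.58 (foxf1.S) to 0.39 (fli1.L). The summed level of the 12 found was 170.5 to 252 CPM in half-size and 148 to 169.9 CPM in intact libraries. Much of that sum was wnt8a, so it does not stand for the list as a whole. Mean levels were 83.0 and 55.6 CPM for wnt8a.L in half-size and intact libraries, and 53.6 and 32.7 CPM for wnt8a.S. Of 14 genes for markers of organizer and dorsal midline 8 rose and none fell, with a summed level of 739 to 1267 CPM in half-size and 587 to 864 CPM in intact libraries. The part of these tissues in the lower levels of szl, bambi and smad7.L was not tested.

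Of 12 genes that are high at early gastrula, 5 rose and gs17.S fell (1.99% higher and 3.93% lower of all genes tested). The homeologs of gs17 had opposite signs. For gs17.S the log2 fold change was −0.94 (adjusted p = 0.00204), and for gs17.L it was 0.55 and did not pass (adjusted p = 0.0624). Summed levels of the 12 genes were 622 to 1606 CPM in half-size and 401 to 994 CPM in intact libraries. The part of developmental stage was not tested either. Of 14 neural plate genes 5 fell, those of the rax, six3 and pax6 genes, and of 11 endoderm genes none passed in paired edgeR (3 at an unadjusted p under 0.05, against 22.6% of all genes tested), DESeq2 or limma-voom. Summed endoderm levels were 689 to 795 CPM in half-size and 675 to 784 CPM in intact libraries.

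The genes whose pattern over the 6 libraries was most like that of szl.L, by Pearson correlation of log2(CPM + 0.5) among 8594 named genes with a mean of at least 5 CPM, were itga6.L (r = 0.975), sdhd.L (0.975), utp11l.L (0.972), tpt1.L (0.969) and ventx3.2.L (0.967). Its homeolog szl.S came 32nd (r = 0.910). For bambi.L the order was cct6a.S (r = 0.989), timm8b.S (0.988), icmt.S (0.986), ptges3.L (0.982) and its homeolog bambi.S (0.982). With 6 libraries that share siblings in pairs, these correlations are a description, and they do not measure the size of a change. Paired log2 fold changes were −0.39 to −0.22 for the 5 genes named first for szl.L. They were −0.44 to −0.11 for those named for bambi.L other than bambi.S. Besides the homeologs szl.S and bambi.S, only utp11l.L passed (adjusted p = 0.0336).

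In the authors' deposited table, which compares the groups without stating any pairing, 18 of the 20 genes are listed. The log2 fold changes there were −1.40 for szl.L, −0.98 for szl.S, −0.54 for bambi.L and −0.60 for bambi.S. The authors' deposited table gives an unadjusted p of 0.000344 and an adjusted p of 0.232 for szl.L, and 0 of the 18 have an adjusted p under 0.05, beside 21 of 19508 genes in all (0.108%). At an unadjusted p under 0.05 the authors' deposited table has 4 of the 18, the szl and bambi homeologs, all lower in half-size embryos, against 1.31% of its 19508 genes called lower in that way.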

How the data were processed

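Per the labels' protocols, RNA was made into stranded mRNA libraries. The authors deposited raw counts per gene as whole numbers. The submitters' processing notes name TopHat2, HTSeq and DESeq with neither role nor version. Genome build, use of strand in counting and treatment of reads shared by homeologs: not given in the sources used here. A second deposited table holds the authors' own comparison, whose mean levels are a signal (counts divided by size factors, as recomputing showed), with a ratio (fold change), its log2 value and a p-value and adjusted p-value per gene.

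Counts were tested with edgeR 4.0.16 (glmQLFit, glmQLFTest) in R 4.3.3, after TMM scaling and filterByExpr, two-sided, with Benjamini-Hochberg adjustment over all 21673 genes and a threshold of 0.05. The main fit had the group alone. The paired fit added the replicate number: the labels name siblings, and deviations from group means correlated at 0.77, 0.84 and 0.70 within numbers. Between numbers they correlated at −0.58 to −0.17. Centring on the group mean itself pulls these values down, so they add no separate evidence of pairing. The spread between libraries (biological coefficient of variation) was 34.1% without and 11.4% with pairing. Standard errors were derived from the F statistic. DESeq2 1.42.0, limma-voom (limma 3.58.1), other scaling, no filter, summed homeologs and left-out libraries were the alternatives. Fits were also run on simulated data with a pair effect set for every gene, which cannot show whether the calls given here hold. CPM means carry the SD over 3 libraries.

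All genes of the group were named, and of the pathway lists those called in the paired fit, or else the gene with the highest mean. Some other genes, homeologs of called ones among them, were named beside these. For marker lists the counts are given, with some genes by name. Symbols were matched exactly: 40 of 57 pathway symbols and 40 of 56 marker symbols were found. The genes, lists and tests were chosen with earlier results of these data known. The tests between replicate numbers and the counts of genes without overlap or lower in all pairs were chosen after seeing the data.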

Additional observations from a re-analysis of the deposited data

How the results depend on the processing

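Without pairing edgeR called 0 genes, 0 of the feedback genes and 0 of the other BMP pathway genes, also with DESeq2's size factors, with no filter, with homeologs summed and without any 1 library, and by limma-voom; the DESeq2 test called 52 genes and 1 feedback gene. The paired fit, which has the replicate block, called 1283 genes, 5 feedback genes and 10 pathway genes. In the same order the paired counts were 1271, 5 and 9 with DESeq2's size factors, 2568, 6 and 17 with no filter (ventx3.1.S added), 1118, 4 and 12 by DESeq2, 1364, 5 and 12 by limma-voom and 1044, 3 and 7 with homeologs summed. They were 1471, 6 and 15 without replicate 1 (ventx3.2.L added, adjusted p = 0.0190), 1055, 4 and 8 without replicate 2 (smad7.L lost) and 507, 3 and 7 without replicate 3 (szl.L and smad7.L lost). The paired edgeR fit with no filter is read with caution. In it szl.L had a log2 fold change of −1.44, against −1.46 with the filter. Its adjusted p was 8.73e-29 there, against 0.0111 with the filter. The cause of the changes between settings was not tested.

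The direction of the szl, bambi, smad6, smad7, bmp4 and ventx3 genes was the same in every alternative run. The log2 fold change of ventx1.2.S, 0.02 without pairing, was −0.013 with the block, −0.0056 with the block and DESeq2's size factors, −0.0063 by paired DESeq2, −0.0039 by paired limma-voom and −0.025 by limma-voom. With the block it was −0.173 without replicate 1 and −0.054 without replicate 3. With the block ventx1.2.L was −0.051 without replicate 1 and ventx1.1.S 0.045 without replicate 2. Without pairing and with 1 library left out, ventx1.2.S ranged from −0.325 to 0.174, ventx1.2.L from −0.155 to 0.519, ventx1.1.L from −0.450 to 0.080 and bmper.L from −0.654 to 0.065. With single libraries left out, which breaks the sibling pairs, the group difference in L share ranged from −0.640 to 3.15 percentage points for bmp4, −0.854 to 3.47 for smad6, −6.25 to 8.66 for ventx1.1 and −3.10 to 6.89 for ventx1.2, whose 3 differences within pairs had 1 sign (1.63 to 2.12 percentage points). The 4 ratios kept their direction. Precision is limited by 3 libraries per group and, for ventx3.1.S, by low counts.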
